A study of Mus musculus with 6 samples.

Results

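Gelsolin, 2 actins and 3 further genes of the smooth muscle contractile apparatus were followed through a search for the mRNAs bound by MVH in mouse testis. The set holds all 7 array probes whose platform symbol is Gsn, Acta2, Actb, Tagln, Myh11 or Cnn1, out of 23473 probes in the series, and so 6 of its 16446 platform symbols. Each gene had 1 probe except Actb, which had 2 (M200000105 and M300012334). All 7 probes were listed on all 6 arrays and entered every comparison. The genes were chosen by the measured intensity difference between the MVH and the IgG precipitate, so that difference is described here for them with no test.

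Actin filaments are built from globular actin monomers, and their length is set by proteins that nucleate, cap, sever and cross-link them. Gelsolin severs filaments and caps their growing ends in response to calcium. In smooth muscle and in the contractile myoid cells that surround the seminiferous tubules, filaments of alpha smooth muscle actin (Acta2) slide against smooth muscle myosin (Myh11), while calponin (Cnn1) and transgelin (Tagln) bind the filaments. Cytoplasmic beta actin (Actb) is made in nearly all cells. MVH, also called DDX4, is a helicase of germ cells, so most of these genes are known best from the somatic cells of the testis.

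Every array carries testis RNA of mice labelled as strain C57/BL6. The age of the mice is not given in the sources used here. Cells of a pair of testes were lysed, and the cleared lysate was incubated with an anti-MVH antibody or with normal rabbit IgG, which has no intended target. RNA was then extracted from the protein A beads. The third group, labelled WCE, is total RNA with no antibody and is called total RNA here. Each of the 3 groups has 2 arrays, numbered 1 and 2. Separate animals are not stated for them, and the p-values therefore rest on a spread between arrays that may be technical.

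The values are intensities on a linear scale, given here after each array was scaled to a median of 30, which changes only IgG precipitate 2 (deposited median 20.8). Between 22090 and 22965 probes were listed per array, with lowest listed intensities of 1.3 to 2.0 before scaling. Differences are log2 differences of group means, with the standard error (SE) of limma's fit over all 6 arrays, and n = 2 per group throughout. An adjusted p is limma's Benjamini-Hochberg value over all probes tested in a comparison, with a threshold of 0.05. The number of arrays limits the precision. RNA was amplified and each array centred, so total recovery of RNA was not measured. In such bulk samples fewer cells of a type and less RNA per cell cannot be told apart. Germ cell RNA was abundant in every group, with a summed scaled intensity over 14 germ cell marker probes of 226577 to 321337. Ddx4 itself stood at 1396 and 1559 with MVH at 1468 and 1391 with IgG, and at 860 and 1306 in total RNA.

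Smooth muscle genes are switched on through serum response factor, which binds the CArG box, a pair of C, a run of 6 A or T and a pair of G. The RefSeq promoter table (GRCm38.p6) holds 5 windows for 3 of the 6 genes: 3 starts of Gsn and 1 each of Acta2 and Cnn1. The 250 bases before the start are shown for Acta2 and for the first Gsn start, the windows with a match, and for Cnn1, a smooth muscle gene without one. Capitals mark a CArG box with 1 G or C in its middle run; the pattern reads the same on either strand, and the marked boxes do not overlap each other.
Acta2, chr19:34255374-34255623, minus strand: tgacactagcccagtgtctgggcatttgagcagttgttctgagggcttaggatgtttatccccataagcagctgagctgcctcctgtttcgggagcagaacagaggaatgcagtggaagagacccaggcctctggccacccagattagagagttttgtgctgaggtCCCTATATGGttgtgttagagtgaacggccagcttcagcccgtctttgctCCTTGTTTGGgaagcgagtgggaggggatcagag
Gsn start 1, chr2:35256109-35256358, plus strand: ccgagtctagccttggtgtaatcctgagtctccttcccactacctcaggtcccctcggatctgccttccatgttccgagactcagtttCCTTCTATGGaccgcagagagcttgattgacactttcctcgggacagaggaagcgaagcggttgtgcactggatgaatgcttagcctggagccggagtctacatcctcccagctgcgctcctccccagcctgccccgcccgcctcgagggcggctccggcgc
Cnn1, chr9:22099003-22099252, plus strand: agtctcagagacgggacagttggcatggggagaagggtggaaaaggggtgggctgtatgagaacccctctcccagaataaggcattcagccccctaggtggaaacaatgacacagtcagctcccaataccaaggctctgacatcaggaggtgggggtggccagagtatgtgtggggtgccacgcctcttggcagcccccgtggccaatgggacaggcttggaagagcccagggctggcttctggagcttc
Acta2 holds CCCTATATGG and CCTTGTTTGG, which begin 84 and 34 bases before the start, and Gsn start 1 holds CCTTCTATGG, which begins 162 bases before it. Neither the other Gsn starts nor Cnn1 has a match. Among 32851 windows of the same length, 8.59% hold the box with at most 1 G or C in the middle and 1.47% the strict box, which none of the 5 windows holds. A match is a description of these letters only. The arrays measured RNA on beads and in lysate, not transcription.

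Gsn RNA stood far higher in the IgG precipitate than in either other group. The MVH arrays read 723 and 461, the IgG arrays 4879 and 6904, and the total RNA arrays 414 and 396. Both IgG arrays were at least 6.75-fold above the higher MVH array and 11.8-fold above the higher total RNA array. Between the precipitates the log2 difference, MVH minus IgG, was -3.33 ± 0.32 (SE), a 10.1-fold difference in level, and over the 4 pairings of single arrays it lay between -3.91 and -2.76. Only 2 of the 21574 probes tested had a lower difference, which is part of why Gsn was chosen.

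Against total RNA, Gsn was 14.3-fold higher in the IgG precipitate (log2 3.84 ± 0.32, limma adjusted p = 0.0223). This was the largest of 21413 differences, and Gsn was 1 of only 2 probes called, or 0.00934% of those tested, all in the higher direction. Other settings called up to 798 higher and 455 lower (variance trend), and 123 and 27 with a replicate block. Beside Gsn, the probe called here was one of the ubiquitin ligase gene Trim25, with 3.13 (adjusted p = 0.0251). The comparison uses the IgG arrays on which Gsn was chosen, so its p is not independent of that choice. The call was kept with only the 4 arrays of the comparison (limma adjusted p = 0.039). It was lost without total RNA 1 or 2, which leaves a single array in that group, although the difference was 3.87 or 3.81. Over the 16 alternative settings the adjusted p ran from 4.52e-05 to 0.349, and 14 of them kept the call. In the MVH precipitate Gsn lay close to total RNA, with a difference of 0.51 ± 0.32 (limma adjusted p = 0.743). The groups did not overlap there, but the gap between the lower MVH and the higher total RNA array was 1.11-fold.

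**Figure D1:**
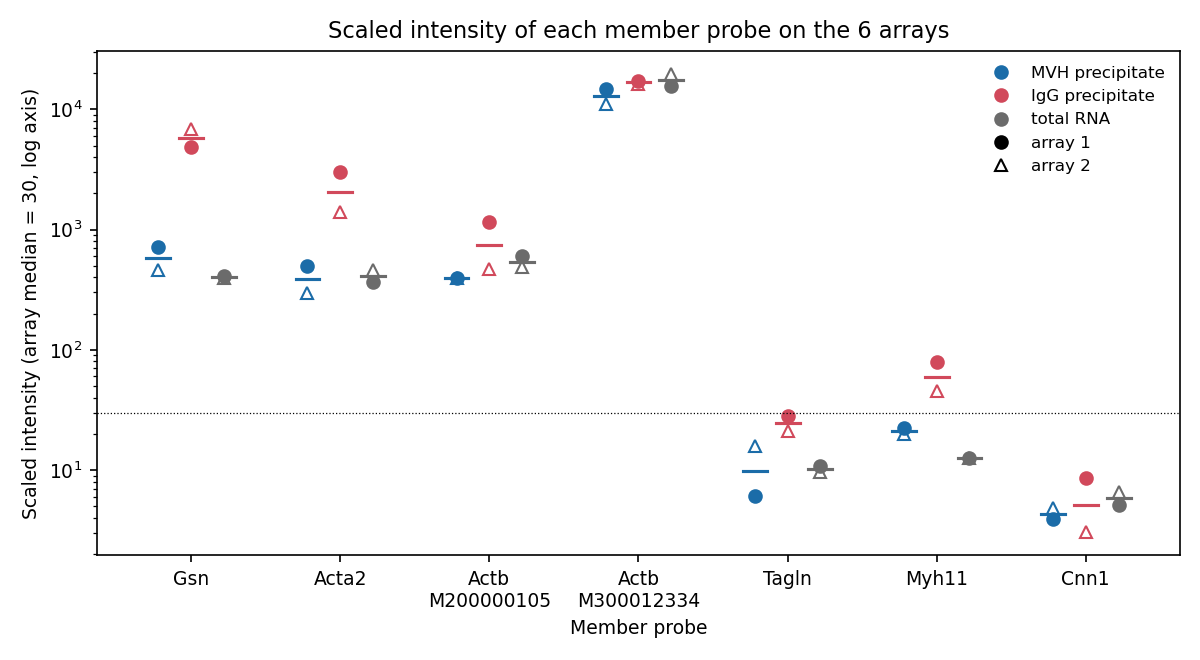
Scaled intensity (log axis, array median 30, dotted line) of each of the 7 probes on the 6 arrays. Filled circles are array 1, open triangles array 2, and short bars geometric means of 2 arrays. The IgG arrays of Gsn lie at 4879 and 6904, above all others of that probe, while the Actb probe M300012334 lies between 11133 and 19803 in all groups.

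Acta2, the smooth muscle actin, was also highest in the IgG precipitate, while its MVH and total RNA arrays overlapped. The MVH arrays gave 502 and 295, the IgG arrays 3037 and 1388, and the total RNA arrays 370 and 463. The lower IgG array was thus 2.77-fold above the higher MVH array and 3.0-fold above the higher total RNA array, although the IgG arrays differed from each other by 2.19-fold. The log2 difference between MVH and IgG was -2.42 ± 0.42, or 5.34-fold, and 23 of the 21574 probes had a lower one. It was -1.85 without IgG precipitate 1 and -2.98 without IgG precipitate 2.

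Myh11, the smooth muscle myosin heavy chain, was much dimmer and again highest with IgG. Its level was 22.3 and 19.9 on the MVH arrays, 78.5 and 45.7 on the IgG arrays, and 12.6 on both total RNA arrays. All 3 groups were separate from one another, with MVH between the other two. The log2 difference between MVH and IgG was -1.51 ± 0.32, a 2.84-fold difference, and ran from -1.98 to -1.04 over the 4 pairings of arrays.

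Neither gene passed the threshold for IgG against total RNA. The difference was 2.31 ± 0.42 for Acta2 (limma adjusted p = 0.059) and 2.25 ± 0.32 for Myh11 (limma adjusted p = 0.0542). Acta2 passed in 7 and Myh11 in 8 of the 16 alternatives, with adjusted p from 0.00564 to 0.35 and from 0.00283 to 0.349. With the spread estimated only on the probes tested, a setting chosen after the data were seen, the values were 0.0303 and 0.0261. Beside total RNA the MVH precipitate gave -0.11 ± 0.42 for Acta2 (limma adjusted p = 0.993), whose arrays overlapped, and 0.74 ± 0.32 for Myh11 (limma adjusted p = 0.547).

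Tagln, which encodes the filament-binding protein transgelin, lay below the array median on all 6 arrays. The MVH arrays read 6.1 and 15.9, the IgG arrays 28.4 and 21.2, and the total RNA arrays 10.9 and 9.6. The IgG arrays were the highest, but MVH precipitate 2 reached within 1.33-fold of the lower one. The log2 difference between MVH and IgG was -1.32 ± 0.43, and its size depended on 1 MVH array, being -0.63 without MVH precipitate 1 and -2.01 without MVH precipitate 2. For IgG against total RNA it was 1.26 ± 0.43 (limma adjusted p = 0.174) and for MVH against total RNA -0.05 ± 0.43 (limma adjusted p = 0.996).

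Cnn1, the gene of the filament-binding protein calponin, was the dimmest probe of the set. The MVH arrays gave 3.9 and 4.8, the IgG arrays 8.6 and 3.03, and the total RNA arrays 5.1 and 6.6. The IgG arrays held both the highest and the lowest of the 6 values, and both MVH arrays lay just below both total RNA arrays. Its difference between MVH and IgG, -0.24 ± 0.46, turned to 0.51 without IgG precipitate 1 and to 0.03 with the values as deposited, and was -0.99 without IgG precipitate 2. The differences from total RNA were -0.18 ± 0.46 for IgG (limma adjusted p = 0.862), which was 0.57 without IgG precipitate 2, and -0.42 ± 0.46 for MVH (limma adjusted p = 0.911). The SD of log2 between the IgG arrays, 1.06, was larger than both differences that use those arrays. Between the MVH arrays it was 0.21 and between the total RNA arrays 0.26.

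Actb, the cytoplasmic actin, did not share the pattern of Acta2 on its brighter probe. On probe M300012334 the MVH arrays read 14710 and 11133, the IgG arrays 17325 and 16404, and the total RNA arrays 15534 and 19803. The total RNA arrays enclosed the IgG arrays, and both MVH arrays lay below them by a small margin, 1.12-fold below the lower IgG array. Its log2 difference between MVH and IgG was -0.40 ± 0.29 and became -0.13 with no centring, where the median of all probes moved from 0.07 to 0.34. That for IgG against total RNA was -0.06 ± 0.29 (limma adjusted p = 0.936) and took either sign under other scalings, from -0.32 to 0.20. For MVH against total RNA it was -0.45 ± 0.29 (limma adjusted p = 0.743).

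The other Actb probe, M200000105, gave 393 and 394 on the MVH arrays, 1161 and 469 on the IgG arrays, and 598 and 487 on the total RNA arrays. Its IgG arrays differed by 2.47-fold, and the lower of them lay below both total RNA arrays. The log2 difference between MVH and IgG was -0.91 ± 0.41, and rested on IgG precipitate 1: it was -0.25 without that array and -1.56 without IgG precipitate 2. The differences from total RNA were 0.45 ± 0.41 for IgG (limma adjusted p = 0.602), which became -0.20 without IgG precipitate 1, and -0.45 ± 0.41 for MVH (limma adjusted p = 0.874). The files used here do not show which part of the transcript each probe reads.

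**Figure D2:**
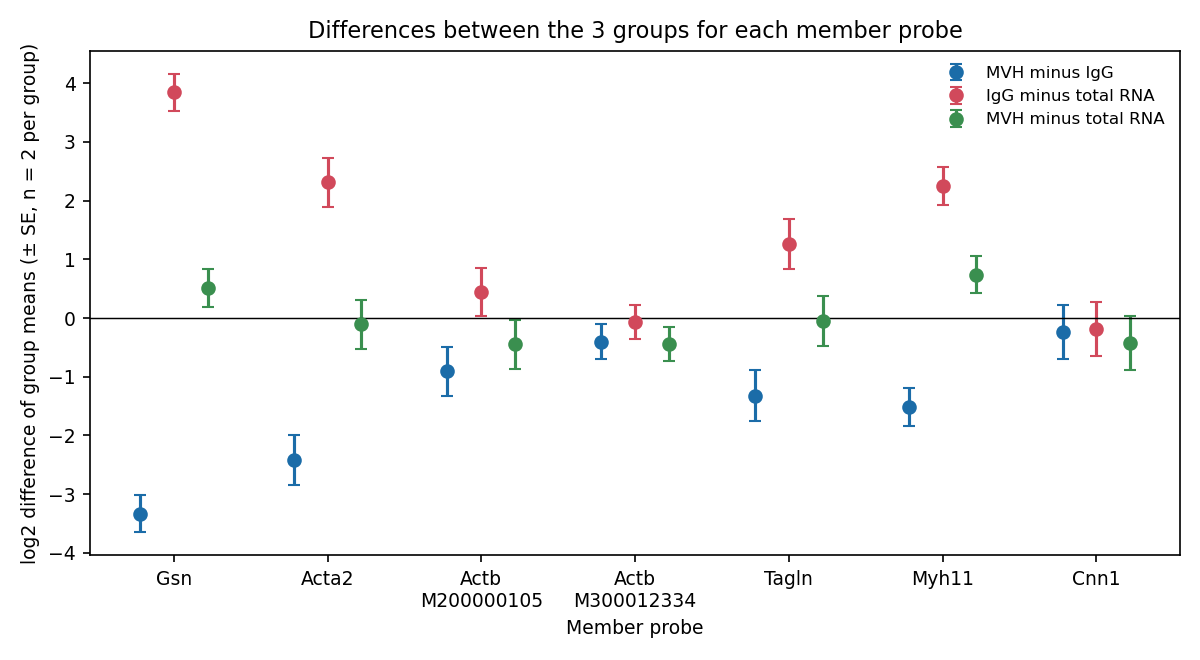
Log2 difference of group means for each of the 7 probes in the 3 comparisons; points are estimates and bars ± SE from limma, n = 2 arrays per group. Gsn (3.84), Acta2 (2.31) and Myh11 (2.25) have the highest values for IgG minus total RNA, whereas all values for MVH minus total RNA lie between -0.45 and 0.74. The 3 comparisons share arrays.

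Side by side, the 7 probes ranged from -3.33 (Gsn) to -0.24 (Cnn1) for MVH minus IgG, against a median of 0.07 over all probes. In 6 of the 7 both MVH arrays lay below both IgG arrays, a state reached by 23.8% of all probes tested; the choice of genes fixed this direction and nothing is read from it. For IgG against total RNA 4 of the 7, Gsn, Acta2, Myh11 and Tagln, had both IgG arrays above both total RNA arrays, a state reached by 20.0% of all probes, and 1 was called. For MVH against total RNA 0 of the 7 were called by limma, where 0.0138% of all probes were, and 1, Myh11, was past an unadjusted threshold of 0.05 in the higher direction (4.53% of all probes). There 2 of the 7 had both MVH arrays above (18.7% of all probes) and 3 below (21.6%). The IgG and MVH differences from total RNA share the total RNA arrays, and all comparisons share arrays in pairs.

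The arrays of a group spread unequally. The SD of log2 was larger between the IgG than between the MVH arrays for Acta2 (0.80 against 0.54), Myh11 (0.55 against 0.12) and Cnn1 (1.06 against 0.21). It was larger between the MVH arrays for Gsn (0.46 against 0.35) and Tagln (0.98 against 0.30). For Acta2, Myh11, Cnn1 and Actb M200000105, IgG precipitate 1 was the higher array by 1.72-fold to 2.84-fold, while for Gsn it was the lower by 1.42-fold. IgG precipitate 2 was also the array with the most blank probes, 1383 against 508 on IgG precipitate 1. In total RNA the arrays of each probe differed by at most 1.29-fold.

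The genes with the pattern nearest to each member were found by Euclidean distance over the 6 log2 values after subtraction of each probe's mean, among 8456 named probes whose mean over the 6 arrays lay above the array median, which a probe high only with IgG can also pass. Nearest to Gsn were Trim25 (distance 1.08), Fam160b2 (1.30), Cmc2 (1.61), the mitochondrial carrier gene Sfxn3 (1.63) and Spag7 (1.66). For Trim25 the MVH arrays read 20.0 and 27.7, the IgG arrays 156 and 195, and the total RNA arrays 20.0 and 19.8. Nearest to Acta2 were Cyp11a1 (0.57), the side-chain cleavage enzyme that starts steroid synthesis in Leydig cells, Mxra7 (0.77) and Akap17b (0.81). For Cyp11a1 the MVH arrays read 211 and 158, the IgG arrays 1232 and 551, and the total RNA arrays 119 and 227, so that its IgG arrays also differed in the direction seen for Acta2. Nearest to Myh11 were Acsbg1 (0.54), the inositol kinase gene Itpka (0.61) and Sart3 (0.64).

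The bright Actb probe had Tcta (0.08), Rabif (0.13) and Alkbh6 (0.16); the Tcta arrays ran from 339 to 588. Tagln had 1700025G04Rik (0.59), the centriole gene Cenpj (0.59) and the translation initiation factor gene Eif4a2 (0.60). Cnn1, itself near the floor, had Sost (0.33), Dclre1b (0.37) and Rdh14 (0.38). The distance is a description over 6 arrays, and the search used the brighter Actb probe only.

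**Figure D3:**
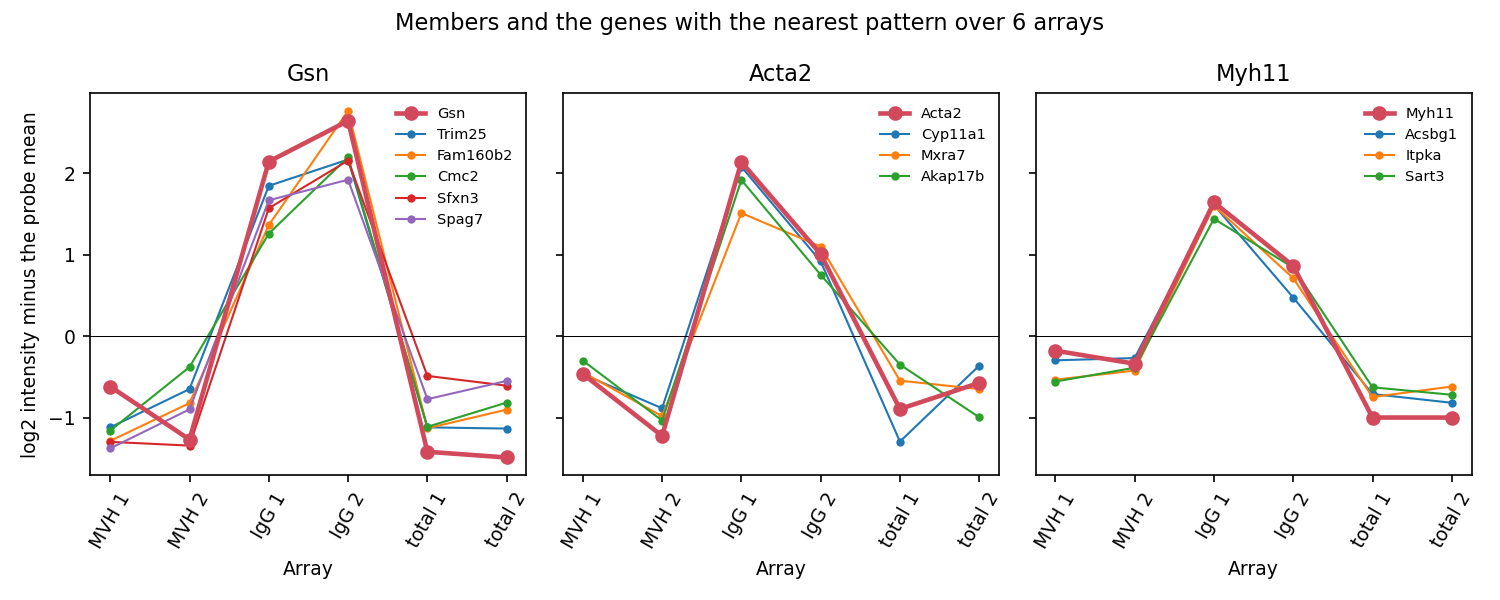
Log2 intensity minus the probe's own mean on the 6 arrays for Gsn, Acta2 and Myh11 (thick lines) and the genes nearest to each (thin lines); lines join the arrays for legibility only. In all 3 panels the IgG arrays are the highest, with IgG 2 above IgG 1 for Gsn (scaled intensities 6904 and 4879) and IgG 1 above IgG 2 for Acta2 (3037 and 1388).

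Other genes of the smooth muscle apparatus did not follow Gsn and Acta2 as a body. Of 25 further genes of contraction and of peritubular cells, 22 had a probe and 20 probes were tested. With MVH compared to IgG, limma called 0 of them higher and 1 lower (5.0%, against 4.15% of all probes called lower), and 7 had positive and 13 negative differences. Their median was -0.06, against 0.07 over all probes. The called gene was Tpm1, a tropomyosin that lies along the filament, at 116 on both MVH arrays against 444 and 337 with IgG (log2 -1.74 ± 0.29, limma adjusted p = 0.0187). At an unadjusted p under 0.05 the list had 1 higher and 3 lower (12.6% and 12.8% of all probes). The call of Tpm1 was lost without MVH precipitate 1, MVH precipitate 2 or either total RNA array, with only the 4 arrays compared, and with no centring.

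Some members of that list gave values on either side of zero. Srf, the serum response factor gene, read 13.9 and 24.7 with MVH against 38.0 and 36.3 with IgG (-1.0 ± 0.32, limma adjusted p = 0.0931). Values near zero came from the kinase gene Mylk (0.20), the leiomodin gene Lmod1 (-0.03), the intermediate filament gene Des (0.11) and the smooth muscle coactivator gene Myocd (0.31). Their limma adjusted p ran from 0.531 to 0.965, and Des and Myocd were dim, at 7.3 to 10.6 in the precipitates. Lower with MVH but not called were Nexn (-0.93, limma adjusted p = 0.292), Ppp1r14a (-0.75, 0.168) and Tpm2 (-0.74, 0.243). Both MVH arrays lay below both IgG arrays for Ppp1r14a and Tpm2, but not for Nexn. The list held 13 negative and 7 positive differences. Against total RNA 0 of 20 were called for IgG (5 higher and 2 lower at an unadjusted p under 0.05, where all probes gave 9.35% and 8.86%) and 0 of 20 for MVH (0 and 1, with 4.53% and 4.41% of all probes).

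Actg2, the other smooth muscle actin, had values opposite to those of Acta2. The MVH arrays read 9404 and 11843, the IgG arrays 5729 and 4382, and the total RNA arrays 9314 and 12443. Both IgG arrays were thus the lowest of the 6. The difference between MVH and IgG was 1.07 ± 0.30 (limma adjusted p = 0.0626) and that between IgG and total RNA -1.10 ± 0.30 (limma adjusted p = 0.111), neither past the threshold. In total RNA Acta2 read only 370 and 463, and which cells the Actg2 RNA came from was not tested. Because the Actg2 probe is so bright, it decides the summed level of the smooth muscle list. With the members left out, the sum over 22 probes was 10287 to 12612 with MVH, 5560 to 7195 with IgG and 10258 to 13371 in total RNA. Without Actg2 too, left out after its values were seen, it was 769 to 883, 1178 to 1466 and 928 to 944. Myl6 and Myl9 had no probe here, and the peritubular genes Ptch1 and Lgr4 were blank on some array.

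The actin-like genes of spermatids stood higher with MVH than with IgG, unlike Acta2, but none passed the threshold. Of 7 probes for other actins and actin-like proteins, Actg2 and Actl6a included, 6 had positive differences between MVH and IgG. Their median over the 7 was 0.61, and limma called 0 either way. At an unadjusted p under 0.05 there were 2 higher and 0 lower (12.6% and 12.8% of all probes). Actrt1 differed by 0.96, Actrt2 by 0.67, Actrt3 by 0.61 and Actl7b by 0.23 (limma adjusted p from 0.113 to 0.702). For IgG minus total RNA the same genes gave -0.38, -0.22, -0.4 and 0.0, where Acta2 gave 2.31. The skeletal muscle actin gene Acta1 was dim, at 4.9 to 9.1 in the precipitates, with -0.10. Against total RNA limma called 0 of 7 for IgG or for MVH. At an unadjusted p under 0.05 IgG had 0 higher and 1 lower (9.35% and 8.86% of all probes). MVH had 0 and 0 (4.53% and 4.41%).

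Genes that sever, cap or bind monomers, the class of Gsn, changed in both directions between the precipitates. Of 27 probes, limma called 2 higher with MVH (7.41%, against 3.82% of all probes called higher) and 4 lower (14.8%, against 4.15%), with a median of -0.12. Lower were the twinfilin gene Twf2 (log2 -1.67 ± 0.29, limma adjusted p = 0.0201), the profilin gene Pfn1 (-1.32, adjusted p = 0.0468), the disassembly factor gene Wdr1 (-1.32, 0.0362) and Flii (-1.11, 0.0462), which like Gsn encodes a protein with gelsolin repeats. For Flii the MVH arrays read 90.5 and 87.5, the IgG arrays 225 and 165, and the total RNA arrays 92.6 and 85.5, with the IgG arrays highest as for Gsn. For Pfn1 the MVH arrays read 191 and 140, the IgG arrays 526 and 318, and the total RNA arrays 431 and 364. Its IgG and total RNA arrays overlapped (0.04 ± 0.33), while MVH minus total RNA was -1.28 ± 0.33 (limma adjusted p = 0.29). Higher were the tropomodulin gene Tmod2 (2.09 ± 0.33, limma adjusted p = 0.0172) and the profilin gene Pfn2 (1.24, 0.0394). The other gelsolin relatives gave -0.33 (Scin), -0.77 (Svil), -0.12 (Avil), 0.16 (Vil1) and -0.11 (Capg), with adjusted p from 0.144 to 0.889. Against total RNA limma called none of the 27 for IgG or for MVH. At an unadjusted p under 0.05 IgG had 4 higher and 1 lower (9.35% and 8.86% of all probes). MVH had 3 and 2 (4.53% and 4.41%).

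Among 19 probes of nucleation and branching genes, limma called 4 lower with MVH than with IgG (21.1%, against 4.15% of all probes) and 0 higher, with 11 negative and 8 positive differences and a median of -0.13. The called genes were the cortactin gene Cttn, at 125 and 115 against 357 and 358 (log2 -1.57 ± 0.26, limma adjusted p = 0.018), Wasl (-1.40, adjusted p = 0.0301), and the Arp2/3 subunit genes Arpc5l (-1.21, 0.0315) and Arpc5 (-1.18, 0.039). At an unadjusted p under 0.05 the counts were 0 higher and 6 lower (12.6% and 12.8% of all probes). The other measured subunits of the same complex did not pass: Actr2 gave -1.28 (adjusted p = 0.082), Arpc1b -0.66, Actr3 0.04, Arpc1a 0.11 and Arpc2 0.26. The formin gene Diaph2 read 427 and 196 with IgG against 28.4 and 21.1 in total RNA (3.56 ± 0.39, limma adjusted p = 0.0542), the highest of the 83 differences of the actin lists there, and 113 and 135 with MVH. Against total RNA limma called 0 of 18 for IgG or for MVH. At an unadjusted p under 0.05 IgG had 6 higher and 0 lower (9.35% and 8.86% of all probes). MVH had 1 and 0 (4.53% and 4.41%).

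Among 31 probes of crosslinking and membrane-linking genes, limma called 1 higher with MVH (3.23%, against 3.82%) and 2 lower (6.45%, against 4.15%), with a median of 0.18. The spermatid fascin gene Fscn3 was higher, at 7936 and 9101 against 2994 and 2992 (log2 1.51 ± 0.26, limma adjusted p = 0.0198). Its total RNA arrays read 8003 and 7777. MVH thus lay close to total RNA (0.11 ± 0.26), and the IgG arrays lay below it (-1.40 ± 0.26, limma adjusted p = 0.059). Lower were 1 probe of the plectin gene Plec (-1.60, adjusted p = 0.0205) and 1 of the tropomyosin gene Tpm3 (-1.41, 0.0256). The second probe of Plec gave 0.87 ± 1.05 (SE) and that of Tpm3 -0.22 ± 0.32, and neither passed. Against total RNA limma called 0 of 31 for IgG or for MVH. At an unadjusted p under 0.05 IgG had 4 higher and 2 lower (9.35% and 8.86% of all probes). MVH had 2 and 1 (4.53% and 4.41%). Over all 4 actin lists, 84 probes held 3 called higher with MVH than with IgG (3.57%, against 3.82%) and 10 lower (11.9%, against 4.15%). Their median was 0.04. Both counts went to 0 without MVH precipitate 1, MVH precipitate 2 or either total RNA array and with only the 4 arrays compared, and the lower count also with no centring, where 3 higher were called.

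**Figure D4:**
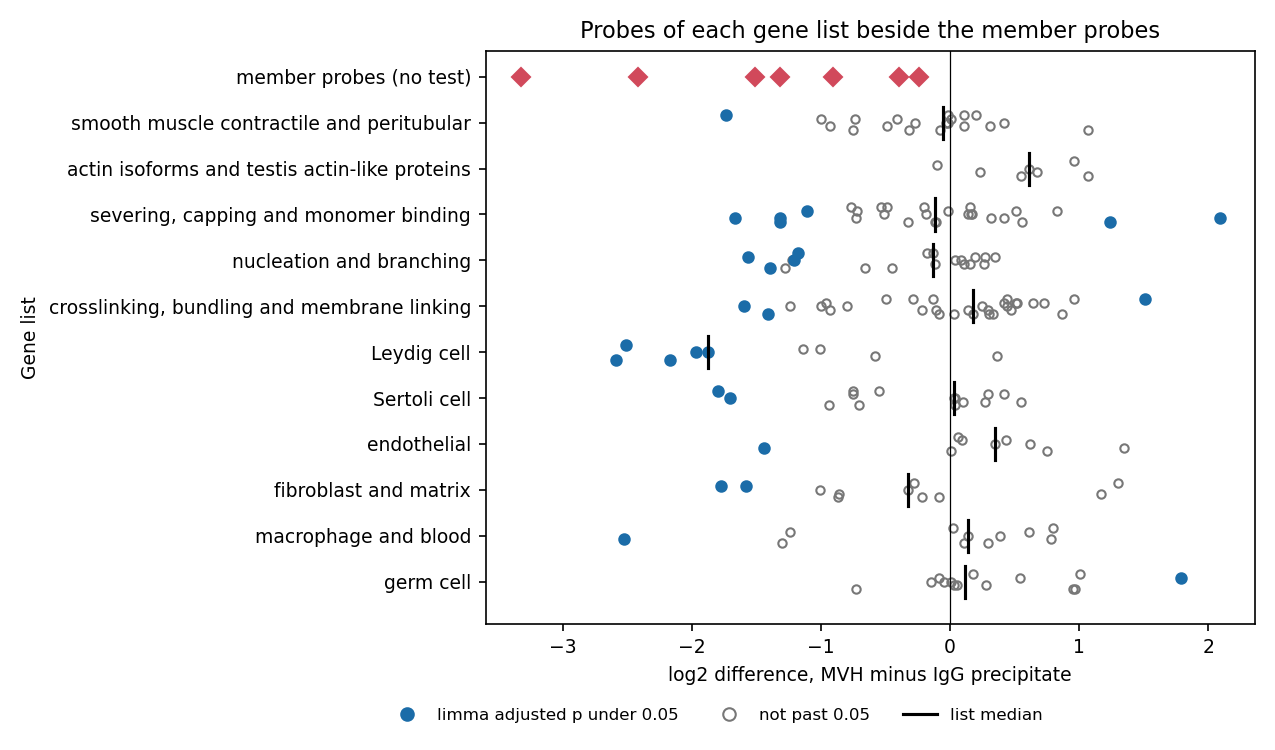
Log2 difference between the MVH and the IgG precipitate for each probe of the gene lists, with member probes as diamonds (not tested) and the members left out of the lists below. Filled circles passed the threshold and vertical bars are list medians. The smooth muscle list has its median at -0.06, close to the 0.07 of all probes, and the Leydig list at -1.88.

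Marker lists of other testis cells differed in how they stood between the precipitates. All calls in this paragraph were lost with only the 4 arrays compared and without MVH precipitate 2 or either total RNA array, settings in which 0 of all probes were called. Of 9 Leydig cell probes limma called 5 lower with MVH than with IgG (55.6%, against 4.15%) and 0 higher, with a median of -1.88. At an unadjusted p under 0.05, 7 were lower and 0 higher (12.8% and 12.6% of all probes). For IgG against total RNA 0 of the Leydig probes were called, with 5 higher and 0 lower unadjusted (9.35% and 8.86% of all probes). Their summed scaled intensity was 689 to 712 with MVH, 2464 to 3428 with IgG and 868 to 1433 in total RNA; Insl3 and Lhcgr had no probe here. Sertoli cell markers had 2 of 15 called lower (13.3%, against 4.15%), the hormone receptor gene Amhr2 (-1.71) and Defb36 (-1.80), and 0 higher. Unadjusted, 6 were lower and 0 higher (12.8% and 12.6% of all probes). Their median was 0.03, and the 8 positive differences, at most 0.55, came from probes reading at most 31.9 in the precipitates. The brightest probes, Ctsl (-0.94, limma adjusted p = 0.117) and Clu (-0.75, 0.113), were lower but not called. Sertoli sums were 9417 to 12616, 20768 to 21207 and 15270 to 18144. Fibroblast and matrix genes had 2 of 11 called lower (18.2%, against 4.15%), Pdgfra (-1.78) and Col3a1 (-1.58), and 0 higher. Unadjusted, 5 were lower and 2 higher (12.8% and 12.6% of all probes). They had 9 negative differences and a median of -0.33, with sums of 3404 to 3672, 4431 to 5711 and 4883 to 5886. Endothelial markers had 1 of 9 called lower (Flt1, -1.44, 11.1% against 4.15%) and 0 higher. Unadjusted, 1 was lower and 1 higher (12.8% and 12.6% of all probes). The other 8 differences were positive and the median was 0.35, with sums of 125 to 140, 123 to 141 and 138 to 151. Pecam1 and Cdh5 were blank on some arrays. Macrophage and blood markers had 1 of 11 called lower (Pf4, -2.53, 9.09% against 4.15%) and 0 higher. Unadjusted, 3 were lower and 2 higher (12.8% and 12.6% of all probes). They had 8 positive differences and a median of 0.14, with sums of 589 to 632, 500 to 595 and 838 to 1098. Germ cell markers had 1 of 14 called, the meiotic gene Sycp3, which was higher with MVH (1.79, 7.14% against 3.82% of all probes), and a median of 0.11. Unadjusted, 0 were lower and 4 higher (12.8% and 12.6% of all probes). The part of any of these cell types in the values of Gsn, Acta2 and Myh11 was not tested.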

How the data were processed

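The labels describe amplification of the RNA with aminoallyl nucleotides and Cy5 as the dye, with 1 sample on each array; label text on tumour tissue and microRNA labelling did not match these samples and was set aside. The authors deposited 1 linear intensity per probe and array; how it was scanned, background-corrected or scaled is not given in the sources used here. Of 23473 probes, 16631 had 1 platform symbol, 0 several and 6842 none. Symbols of the gene lists were matched after updating 3947 through RefSeq synonyms (GRCm38.p6).

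Log2 intensities were centred on each array's median, and limma 3.58.1 (R 4.3.3; lmFit, eBayes) was fitted to all 6 arrays, with 3 residual and 5.77 prior degrees of freedom. A comparison was tested where its 4 arrays held a value. The fit was checked on simulated data with independent noise and no blank probes, for MVH against IgG only. The members and lists were chosen with earlier results of these data known. The text names all member probes, up to 4 called genes per list, list members at the extremes or of the same family as a member, and the 3 (Gsn: 5) nearest patterns. Ddx4, Nexn, Ppp1r14a, Tpm2, Ctsl, Clu and list members named by family or as known regulators were chosen after their values were seen. Plots used matplotlib 3.10.9.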

Additional observations from a re-analysis of the deposited data

How the results depend on the processing

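The MVH minus IgG differences of Gsn and Acta2 moved by less than the probe's residual SD in the fit under all 16 alternatives. They ran from -3.66 to -3.01 and from -2.98 to -1.85. Settings that change only the spread or the probes fitted, or leave out a total RNA array, cannot move these differences. Leaving out 1 array in turn gave -1.90 to -1.12 for Myh11, -2.01 to -0.63 for Tagln, -1.56 to -0.25 for Actb M200000105 and -0.99 to 0.51 for Cnn1. With no centring Cnn1 became 0.03 and Actb M300012334 -0.13; the cause was not tested beyond the shift of all probes from 0.07 to 0.34. For IgG against total RNA the number of member probes called, 1, was 2 with quantile normalization, 3 with 75th percentile centring, without the dimmest 25% of probes, with an offset of 1.7 before log2, with probes listed on all 6 arrays, with a variance trend, with the spread estimated on tested probes (chosen after seeing the data) and with a replicate block, and 0 to 1 with 1 array left out. The counts over all probes moved with it, from 2 higher and 0 lower to 304 and 109 with the spread estimated on tested probes and 798 and 455 with a variance trend.

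The lower calls among smooth muscle genes, 1, became 0 with no centring or only the 4 arrays compared, 2 without the dimmest probes or with a trend, and 0 to 2 with 1 array left out. Those among actin filament genes, 10, became 0 with no centring or only those 4 arrays and 9 with quantile normalization. They were 12 with an offset or the replicate block, and 13 without the dimmest probes or with a trend. Each fit with 1 array left out called fewer of them lower than the main fit. The 3 higher calls ranged from 0 to 5 over the settings that kept every array of the comparison. The calls among Leydig, Sertoli, fibroblast, endothelial, macrophage and germ cell markers were not counted under each alternative; they were lost wherever 0 of all probes were called. Over all probes, 824 were higher and 895 lower with MVH than with IgG, 1100 and 1163 with the replicate block, 702 and 121 with no centring, and 0 and 0 with only the 4 arrays compared or without MVH precipitate 2 or either total RNA array. The same-numbered arrays deviated together with correlations of 0.157, 0.156 and 0.101 between groups, but there are only 2 numbers and no label pairs them. Dim probes such as Cnn1 and Tagln limit what can be seen.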
